A study of Mus musculus with 8 samples.

Results

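The comparison described here sets AKT-induced salivary gland tumours of mice after 14 days of rapamycin against the same kind of tumour after 3 days. Its members are 3 of the 8 arrays of the study, chosen by the titles and the days of treatment in the labels: 2 arrays of tumour at day 14 and 1 array of tumour at day 3. The other 5 arrays hold tumour without treatment (2), normal parotid gland (2) and normal submandibular gland (1). The untreated tumours serve below as the starting point for the day 3 change. The labels give no strain, age, sex, rapamycin dose, driver of the AKT allele or number of animals, so p-values measure the spread between these samples, which may be technical.

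Rapamycin binds the small protein FKBP12 (Fkbp1a), and the pair inhibits mTOR complex 1, a kinase downstream of AKT. This complex promotes protein synthesis, ribosome assembly, sterol and lipid synthesis and glycolysis, and holds back autophagy. The salivary gland consists of acini, which make the proteins of saliva, and ducts. In the mouse submandibular gland the granular convoluted ducts make kallikreins, renin and epidermal growth factor, and they are known to be larger in males than in females.

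Each value below is a log2 level: the scanner's processed signal of the gene's brightest probe, relative to the 75th percentile of all probes on that array, which is 0. A level compares one gene between arrays and not one gene with another. Fewer cells of a type and less RNA per cell cannot be told apart in these bulk samples. The 75th percentile was itself 177 and 236 signal units at day 14, 730 at day 3 and 966 and 972 without treatment. Against the spike-in probes, RNAs added at labelling, it was lower at day 14 by 2.22 log2 units than at day 3. Scaling to those probes therefore lowers every difference between day 14 and day 3 given below by 2.22, so a rise of less than 2.22 turns into a fall. The dimmest signal well above background lay at -3.18 and -3.76 on the day 14 arrays, -4.02 on the day 3 array and -5.13 and -5.60 on the untreated ones. Spots called non-uniform by the scanner numbered 791 at day 3 and 5 and 31 at day 14.

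Sex-linked genes and skeletal muscle genes separated the time points too. Xist, the RNA of the inactive X chromosome, was at -5.45 and 4.19 without treatment, at 4.42 on the day 3 array, and at -2.10 and -2.40 on the day 14 arrays. Ddx3y, a gene of the Y chromosome, stood at 0.48 and -7.62 without treatment, -5.94 at day 3, and 1.72 and 1.41 at day 14. The day 3 array thus had high Xist with Ddx3y not well above background, and both day 14 arrays had Ddx3y well above background. Xist was well above background on both day 14 arrays too, at lower levels than at day 3. Time and the sex shown by these genes cannot be told apart between day 3 and day 14, while the untreated tumours held 1 array of each pattern. The 2 day 14 arrays were close to each other, with a correlation of 0.986 over genes and 249 of 13575 genes (1.83%) at least 2-fold apart. The 2 untreated arrays had 5.15% of genes that far apart. Over 2812 bright genes the robust SD of the difference was 0.278 for the day 14 pair. Repeated spots of a probe had a median SD of 0.0831 and 0.0897 within those arrays. The first is the spread of a difference between 2 arrays and the second that of single spots of other probe sets within 1 array, so they are not on the same scale.

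Late treatment differed from early treatment across much of the transcriptome. Of 16362 genes tested with limma, 3723 (22.8%) passed an adjusted p of 0.05 between day 14 and day 3, 1789 (10.9%) of them higher and 1934 (11.8%) lower at day 14. The correlation over genes was 0.791 and 0.794 between day 3 and the day 14 arrays, and 0.966 and 0.962 between day 3 and the untreated arrays. With spike-in scaling the split became 474 higher and 11970 lower. Without the first or the second day 14 array, the count fell to 897 and 769, and without the first or the second untreated array to 2433 and 2425. Without the first or the second parotid array it rose to 7463 and 7517; the parotid pair, which enters the shared estimate of the spread, had 18.8% of genes at least 2-fold apart. Day 3 and the second day 14 array share a slide, which alone holds 1 array of each time and gives no test. With slide as a fixed block 2825 genes were called. Since day 3 is 1 array, its spread is taken from the other groups.

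Of the 1789 higher genes, 663 were not well above background at day 3, and of the 1934 lower genes, 506 were not well above background at day 14. For those genes the size is given as "at least", the bright mean over the higher of the array's dimmest measurable signal and the gene's own signal.

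Of the 8 largest rises, 6 were kallikreins made by granular ducts and 2 were muscle myosins. All 17 tested genes of the granular duct list were called higher at day 14, against 10.9% of all genes, with differences from 8.31 to 15.81 and a median of 13.18 (all genes, -0.04). The median was 11.72 once dim values were raised to the common floor of -3.18. Klk1b24, a glandular kallikrein, stood at -7.25 and -7.18 without treatment, -6.28 at day 3, and 9.57 and 9.49 at day 14. It was not well above background on the first 3 arrays and rose at least 11963-fold (adjusted p = 0.000762). Klk1b27 stood at -6.98 and -7.58, then -5.98, then 8.51 and 8.56, at least 6021-fold (adjusted p = 0.000357). Klk1b9, Klk1b16 and Klk1b21 rose at least 10048-fold, 5828-fold and 4143-fold. The levels in the submandibular gland were 8.98 for Klk1b24 and 7.21 for Klk1b27, and those in the 2 parotid samples 1.18 and 3.69 for Klk1b24. In that submandibular sample Xist stood at 3.097 and Ddx3y at -5.06, so high Klk1b24 was also seen with high Xist and low Ddx3y. In the 2 parotid samples, in the same order, Xist stood at 4.46 and -5.17 and Ddx3y at -6.04 and 1.11. Whether the sex pattern contributed to the day 14 levels was not tested.

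The kallikrein genes lie in a cluster on chromosome 7 and are close copies of each other, so a probe may read more than 1 of them. Their promoters show the likeness, and 2 are printed for that reason from RefSeq (GRCm38.p6), from 250 bases before to 30 after the listed start. Capitals mark TTTAAA, read on either strand. Klk1b24 lies on the plus strand at chr7:44187986-44188265 and Klk1b27 on the plus strand at chr7:44052040-44052319.
Klk1b24: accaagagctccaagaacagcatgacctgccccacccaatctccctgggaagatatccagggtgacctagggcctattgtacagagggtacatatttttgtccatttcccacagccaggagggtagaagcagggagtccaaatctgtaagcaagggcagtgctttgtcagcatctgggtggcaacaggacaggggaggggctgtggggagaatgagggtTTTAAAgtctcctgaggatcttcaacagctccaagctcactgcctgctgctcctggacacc
Klk1b27: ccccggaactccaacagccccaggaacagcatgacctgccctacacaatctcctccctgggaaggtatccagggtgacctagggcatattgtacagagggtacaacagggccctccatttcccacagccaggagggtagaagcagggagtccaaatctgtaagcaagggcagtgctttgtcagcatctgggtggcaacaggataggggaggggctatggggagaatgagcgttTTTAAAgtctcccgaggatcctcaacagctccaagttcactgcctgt
Over the full 300 bases of the promoter table these 2 were identical at 262 of 314 aligned positions (83.4%). TTTAAA was in 12 of the 16 granular duct promoters found in the table and in 13.2% of all 27025 promoters, and TATAAA in 3 of 16 and in 14.2%. TTTAAA was searched for after the sequences had been seen, and the 12 matches are not independent, since most come from the kallikrein copies.

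Egf, which encodes epidermal growth factor, rose from -3.19 and -2.79 without treatment through -1.55 at day 3 to 9.14 and 8.72 at day 14. The late difference was 10.48 (SE 0.31, adjusted p = 0.000164), or 1426-fold. Ren1, the renin gene, stood at -0.52 and -0.48, then 0.55, then 10.14 and 10.31, a late difference of 9.68 (SE 1.35, adjusted p = 0.00606). Ren2, its near-identical duplicate, read -0.39 and -0.50, then 0.66, then 10.03 and 9.90, and the array may not separate the pair. In both, the day 3 value already lay above both untreated arrays, by a small part of the later change.

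Acinar products rose as well: 13 of 20 tested members were called higher, against 10.9% of all genes, and none lower, with a median of 8.88. Dcpp2, a secreted salivary protein, stood at -7.15 and -5.93, then -4.38, then 8.39 and 8.75, at least 6153-fold higher at day 14 (adjusted p = 0.000357). Its level was -4.91 in submandibular gland and 6.07 and 6.08 in parotid. Smgc, a mucin-like protein of the developing submandibular gland, stood at -7.46 and -7.89, then -6.34, then 7.18 and 6.88, at least 2116-fold (adjusted p = 0.00355). Prol1 rose from -5.37 and -3.58 through -3.18 to 8.73 and 9.05 (difference 12.07, SE 1.22, adjusted p = 0.00251). All 3 lay above both untreated arrays at day 3, but Dcpp2 and Smgc were not well above background there.

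Genes of ducts and ion transport were mixed, with 9 of 18 called higher and 1 lower, against 10.9% and 11.8% of all genes. Their median was 1.90, and it turned to -0.32 under spike-in scaling. Ascl3, a transcription factor of duct progenitors, rose from -6.55 and -6.45 and a day 3 level of -5.78 to 1.99 and 2.64, at least 80.8-fold (adjusted p = 0.00113). Fxyd2, a regulator of the sodium pump, rose at least 184-fold, from -4.81 at day 3 to 3.41 and 3.61 (adjusted p = 0.000539). Cftr, the chloride channel of duct cells, rose at least 26.3-fold, from -5.36 to 0.98 and 0.41 (adjusted p = 0.0021).

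**Figure D1:**
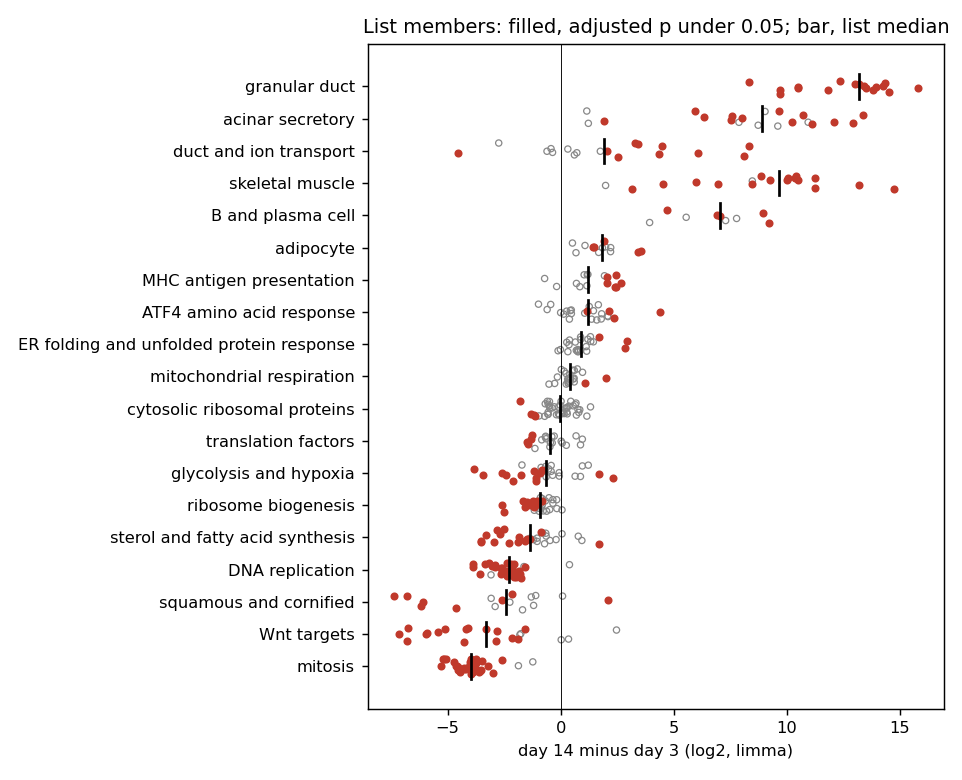
Difference between day 14 and day 3 (log2, horizontal axis) for each tested member of 19 gene lists (vertical axis); filled points passed an adjusted p of 0.05, open points did not, and black bars are list medians. The granular duct median lies at 13.18 and the mitosis median at -3.99.

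Of the tissues around the gland, skeletal muscle moved with the gland products. Of 22 fibroblast and matrix genes 2 were called higher and 3 lower, with a median of -1.15. Of 16 endothelial genes 3 were called higher and none lower, and of 9 nerve genes 1 and 1. Of 18 skeletal muscle genes 16 were called higher and none lower at day 14, with a median of 9.64. Of all genes 10.9% were called higher and 11.8% lower. Myh8, a myosin heavy chain, stood at -7.20 and -6.87, then -5.77, then 9.51 and 9.81, at least 13128-fold (adjusted p = 0.0257, and 0.114 with dim values raised to the common floor). Tnnc2, fast troponin C, stood at -3.76 and -4.55, then -3.70, then 9.46 and 9.53, at least 9381-fold (adjusted p = 0.0405, and 0.115 with the common floor). CAGCTG, an E-box, was in 7 of the 14 muscle promoters in the table, against 16.1% of all promoters. Both day 14 arrays were high in these genes, and no tumour array of the other groups was. The summed signal of the muscle list was 11.12 and 11.16 at day 14, 3.87 at day 3, 2.18 and 3.32 without treatment, 3.20 and 7.84 in parotid and 2.11 in submandibular gland. The summed granular duct signal was 13.13 and 13.18 at day 14, 1.38 at day 3 and 12.84 in submandibular gland, and the summed acinar signal 12.94 and 12.94 at day 14 and 6.76 at day 3. The part that tissue around the tumour had in the gland results was not tested.

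Lymphocyte genes were also higher late. Of 9 B and plasma cell genes 5 were called higher and none lower, and of 15 T and NK cell genes 4 and none. Of all genes 10.9% were called higher. Jchain, the joining chain of secreted antibodies, stood at -2.84 and -4.30, then -3.89, then 4.92 and 5.20, at least 493-fold (adjusted p = 0.00105). Its level was 5.32 in submandibular gland and 5.34 and 5.68 in parotid. Nkg7, a granule protein of killer cells, rose at least 41.1-fold, from -4.34 at day 3 to 1.28 and 1.40 (adjusted p = 0.00723, and 0.0542 with the common floor). Of 15 antigen presentation genes 6 were called higher, among them B2m, the light chain of MHC class I, at 3.09 and 2.98, then 3.71, then 5.99 and 6.28 (difference 2.42, SE 0.28, adjusted p = 0.00343, and 0.621 with spike-in scaling).

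**Figure D2:**
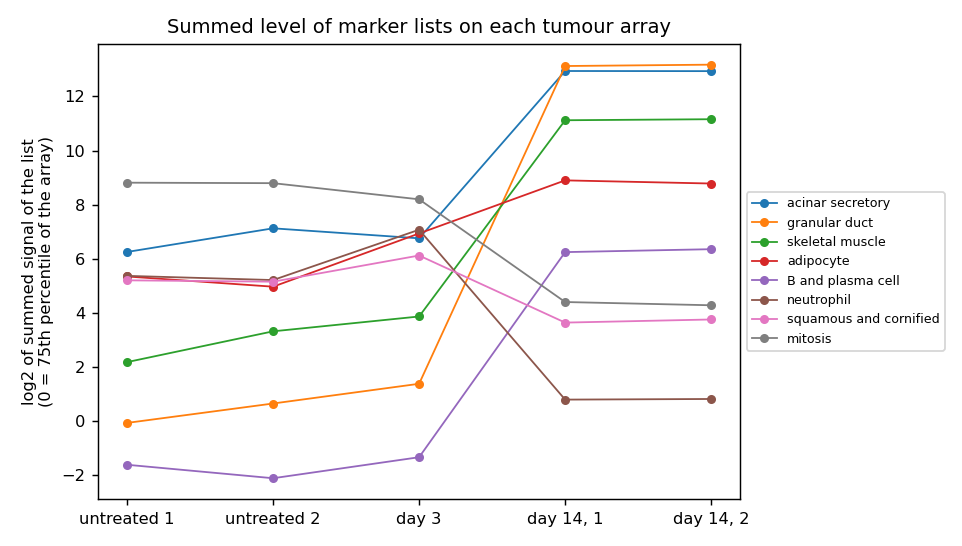
Log2 of the summed signal of 8 marker lists (vertical axis, 0 is the 75th percentile of the array) on each of the 5 tumour arrays (horizontal axis); lines only join the points of a list. The skeletal muscle sum was 3.87 at day 3 and 11.12 and 11.16 at day 14, and the neutrophil sum 7.07 at day 3 and 0.79 and 0.82 at day 14.

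Genes of cell division had the largest share of called falls among the 42 lists. Of 36 mitosis genes 33 were called lower at day 14 and none higher, against 11.8% of all genes called lower, with differences from -5.32 to -1.24 and a median of -3.99. The other 3 members, Ttk, Cenpa and Anln, missed the threshold. Of 32 DNA replication genes 29 were called lower and none higher, with a median of -2.31. All 36 mitosis genes and all 32 replication genes already lay below both untreated arrays at day 3, as did 36.1% of all genes. The medians of the 2 lists at day 3 were -0.57 and -0.59 against the untreated mean. By limma none of these genes passed the adjusted threshold at day 3, and 0 of 36 and 3 of 32 had an unadjusted p under 0.05.

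Nek2, a kinase of the centrosome, stood at 1.05 and 1.16, then 0.61, then -4.17 and -5.25. It was not well above background at day 14 and was at least 16.9-fold lower there than at day 3 (adjusted p = 0.00747). Ncaph, a condensin subunit, stood at 1.44 and 1.58, then 0.65, then -4.80 and -4.24, at least 17.4-fold lower (adjusted p = 0.00631). Top2a, the topoisomerase that untangles replicated DNA, stood at 1.43 and 1.45, then 0.34, then -4.54 and -3.89, at least 14.0-fold lower (adjusted p = 0.00363). Top2a was the 1 mitosis gene whose day 3 drop already passed 2-fold against each untreated array. Among the replication genes, Gins1, a subunit of the replicative helicase, fell from 2.50 and 2.67 through 2.05 to -1.49 and -1.56 (difference -3.57, SE 0.29, adjusted p = 0.00182). Gins2, of the same complex, stood at 0.98 and 1.01, then -0.29, then -4.68 and -3.67, at least 8.78-fold lower (adjusted p = 0.00576).

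The Top2a promoter is printed because mitosis genes moved together and it holds both motifs searched for in them: TTTGAA, the core of the cell cycle homology region, and CCAAT, the NF-Y box. The sequence is RefSeq's, on the minus strand at chr11:99024160-99024439 (GRCm38.p6), with both motifs on either strand in capitals.
Top2a: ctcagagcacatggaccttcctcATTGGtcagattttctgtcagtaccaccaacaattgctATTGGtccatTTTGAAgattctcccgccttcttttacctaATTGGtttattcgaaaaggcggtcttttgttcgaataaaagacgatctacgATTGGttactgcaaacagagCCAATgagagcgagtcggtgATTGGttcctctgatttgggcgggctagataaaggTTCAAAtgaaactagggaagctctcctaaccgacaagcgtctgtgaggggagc
It held 6 matches to CCAAT and 2 to TTTGAA. Over 300 bases TTTGAA was in 22 of the 31 mitosis promoters in the table, against 18.1% of all promoters, and in 3 of 27 replication promoters. In the 250 bases before the start alone it was in 9 of 31, against 16.3% of all. CCAAT was in 24 of 31 mitosis promoters and 15 of 27 replication promoters, against 37.9% of all. TTTCGCGC and TTTGGCGC, forms of the E2F site, were in 5 and 6 of 27 replication promoters, against 0.318% and 0.537% of all. A match describes the letters and does not show that a factor binds.

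Of 19 CDK inhibitor and p53 target genes 7 were called lower and 1 higher, against 11.8% and 10.9% of all genes. The other 11 were not called, and the median was -0.29. Cdkn1a, which encodes p21, stood at 3.84 and 3.27, then 3.03, then -1.48 and -1.42 (difference -4.48, SE 0.34, adjusted p = 0.00165). Cdkn2b, which encodes p15, stood at 2.86 and 2.33, then 3.05, then -1.11 and -0.76 (difference -3.99, SE 0.35, adjusted p = 0.00207). Myc was at 2.66 and 2.54, then 3.46, then 1.25 and 1.25, so that its day 3 level was above both untreated arrays and its day 14 levels below them (difference -2.20, SE 0.28, adjusted p = 0.0046).

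Wnt feedback genes fell between day 3 and day 14. Of 21 Wnt target genes 16 were called lower at day 14 and none higher, against 11.8% of all genes called lower. Their median was -3.29, while 13 of the 21 lay above both untreated arrays at day 3, against 44.0% of all genes. Sp5, a transcription factor induced by Wnt signals, stood at 4.95 and 4.58, then 4.64, then -2.15 and -2.16 (difference -6.79, SE 0.49, adjusted p = 0.00154). Notum, an enzyme that inactivates Wnt ligands, stood at 1.94 and 1.80, then 2.10, then -4.73 and -5.39, at least 47.5-fold lower (adjusted p = 0.00271). Of 7 secreted Wnt antagonists 4 were called lower and none higher. Wif1, one of them, was at 5.58 and 5.61, then 5.86, then -0.91 and -0.81 (difference -6.72, SE 0.29, adjusted p = 0.000422). Dkk2 was at 4.92 and 4.73, then 4.73, then -1.72 and -2.10 (difference -6.64, SE 0.96, adjusted p = 0.00678). In all 4 genes the day 3 array lay within or just above the untreated range and both day 14 arrays lay far below. Ctnnb1, which encodes beta-catenin, went from 4.07 and 3.87 through 3.90 to 2.87 and 2.52 (difference -1.20, SE 0.28, adjusted p = 0.0299, and 0.0641 with slide as a fixed block).

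The Sp5 promoter is printed as that of a Wnt target with a match to ATCAAAG, the TCF/LEF site, in capitals. It lies on the plus strand at chr2:70474673-70474952 (GRCm38.p6, RefSeq).
Sp5: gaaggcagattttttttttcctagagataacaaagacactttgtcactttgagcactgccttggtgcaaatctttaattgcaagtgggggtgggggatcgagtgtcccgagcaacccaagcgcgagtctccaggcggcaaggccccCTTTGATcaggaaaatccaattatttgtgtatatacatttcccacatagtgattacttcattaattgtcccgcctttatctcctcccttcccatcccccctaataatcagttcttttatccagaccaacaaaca
ATCAAAG was in 2 of the 14 Wnt target promoters in the table, against 3.72% of all promoters.

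The 8 largest falls included Bhmt, a methyltransferase that uses betaine, and Msx2, a homeobox factor. Bhmt was at 2.83 and 2.55, then 3.12, then -5.45 and -4.97, at least 96.3-fold lower (adjusted p = 0.00101). Msx2 was at 2.71 and 2.10, then 3.04, then -3.97 and -5.05, at least 90.8-fold lower (adjusted p = 0.0021). Plat, tissue plasminogen activator, fell from 6.16 and 6.28 through 6.41 to 0.13 and 0.44 (difference -6.13, SE 0.31, adjusted p = 0.000539). All 3 lay above both untreated arrays at day 3.

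Of 35 tested members of the AKT and mTOR pathway 4 were called higher, against 10.9% of all genes, and 2 lower, against 11.8%. Fkbp1a, the rapamycin-binding protein, stood at 1.59 and 1.32, then 0.91, then -2.33 and -1.75 (difference -2.95, SE 0.37, adjusted p = 0.00455). Pik3r3, a regulatory subunit of PI3-kinase, fell from 3.54 at day 3 to 0.83 and 1.16 (difference -2.54, SE 0.35, adjusted p = 0.00595). Deptor, an inhibitor bound to mTOR, was at -0.82 and -0.83, then -0.97, then 1.44 and 1.09 (difference 2.23, SE 0.37, adjusted p = 0.0107, and 0.984 with spike-in scaling). Eif4ebp1, the translation repressor that mTOR complex 1 phosphorylates, was at 4.02 and 3.90, then 3.63, then 5.66 and 5.67 (difference 2.04, SE 0.50, adjusted p = 0.0331, and 0.0853 with the common floor), and under spike-in scaling the difference was -0.18. Akt1 was at 4.78 and 4.97, then 4.64, then 4.12 and 4.38 (difference -0.40, SE 0.27, adjusted p = 0.33). Mtor was at -0.58 and -0.59, then -0.60, then -1.01 and -0.78 (difference -0.30, SE 0.32, adjusted p = 0.531). These are values of its brightest probe, and its other kept probe gave a difference of -1.565.

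Lists of sterol synthesis, glycolysis and ribosome biogenesis, tied to mTOR output, held called falls, while 11.8% of all genes were called lower. The lysosome and autophagy list, also tied to mTOR, had 2 of 30 genes called higher and 1 lower, with a median of 0.07. Of 29 sterol and fatty acid synthesis genes 14 were called lower and 1 higher, with a median of -1.36. Sqle, squalene epoxidase, was at 2.94 and 2.88, then 2.67, then -0.92 and -0.78 (difference -3.53, SE 0.32, adjusted p = 0.00212). TCACNCCAC, the sterol regulatory element, was in 1 of 20 of their promoters, against 1.22% of all promoters. Of 27 glycolysis and hypoxia genes 11 were called lower and 2 higher, with a median of -0.67. Their summed signal was 9.85 at day 3 and 10.05 and 10.18 at day 14. Slc16a3, a lactate exporter, was at 5.84 and 5.81, then 5.29, then 2.73 and 2.67 (difference -2.59, SE 0.41, adjusted p = 0.00932). Of 29 ribosome biogenesis genes 11 were called lower and none higher. At day 3, 25 of the 29 had lain below both untreated arrays, as had 36.1% of all genes. Nhp2, a protein of small nucleolar particles, was at 5.40 and 5.75, then 5.09, then 2.15 and 2.81 (difference -2.61, SE 0.34, adjusted p = 0.00502).

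Of 43 ribosomal protein genes 4 were called lower and none higher, with a median of -0.06, and of 20 translation factors 4 were called lower and none higher, against 11.8% of all genes called lower. Rpl4, of the large subunit, was at 3.92 and 4.16, then 3.63, then 1.87 and 1.83 (difference -1.78, SE 0.24, adjusted p = 0.00535).

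Of 24 genes of the ATF4 amino acid response 4 were called higher and none lower, and of 23 ER folding genes 3 and none, against 10.9% of all genes called higher. The medians were 1.20 and 0.87, and they turned to -1.02 and -1.35 under spike-in scaling. Chac1, a glutathione-degrading enzyme, was at 0.94 and -0.43, then -0.35, then 3.88 and 4.16 (difference 4.37, SE 0.90, adjusted p = 0.0199, and 0.0709 with the common floor). Herpud1, a protein of ER-associated degradation, was at 2.98 and 3.13, then 3.21, then 6.20 and 6.04 (difference 2.91, SE 0.45, adjusted p = 0.00846, and 0.139 with spike-in scaling). Of 23 FOXO targets 3 were called higher and 1 lower, among them Ppargc1a, a coactivator of mitochondrial genes, at -0.34 and -0.81, then -0.52, then 3.06 and 2.69 (difference 3.40, SE 0.32, adjusted p = 0.0023, and 0.0562 with spike-in scaling). Of 25 respiration genes 2 were called higher and none lower. Shares near that of all genes are no result about these lists.

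To follow the early changes, a step of at least 1 log2 unit was asked of day 3 against each untreated array, and again of each day 14 array against day 3, with dim values raised to the floor of -3.18. This rule is a description without a test, and the day 3 array enters both steps, so an error in it alone would make an early change look as if it turned back. Of 16127 genes measured in the tumours, 460 (2.85%) stepped up and 180 (1.12%) down at day 3, while 2488 (15.4%) stepped up and 2261 (14.0%) down from day 3 to day 14. By limma, 1 gene (0.00611%) passed the adjusted threshold at day 3 and 1438 (8.79%) an unadjusted p of 0.05.

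That gene was C3, the central complement protein, named here for that reason. It stood at 0.24 and -0.05 without treatment, 4.31 at day 3, and 5.85 and 5.74 at day 14. Its early difference was 4.21 (SE 0.25, adjusted p = 0.0271) and its late difference 1.49 (SE 0.25, adjusted p = 0.0104), the latter below the spike-in shift of 2.22. With slide as a fixed block, limma called no gene at day 3, and 1183 had an unadjusted p under 0.05.

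Of the 460 genes that stepped up early, 158 (34.3%) went on up, 154 (33.5%) turned back and 122 (26.5%) held, which is 0.98%, 0.955% and 0.756% of all genes measured, and in the remaining 26 the day 14 arrays did not both fit one class. Of the 180 that stepped down early, 55 (30.6%) went on down, 13 (7.22%) turned back, 87 (48.3%) held and 25 were split, the first 3 classes being 0.341%, 0.0806% and 0.539% of all genes. List members among those that held after a step up were Krt5, Adipoq, Retn, Cfb, Serping1, Cxcl16, Itgax and S100b, listed after their values had been seen. Most genes that moved did so late only, 2052 (12.7%) up and 1775 (11.0%) down. Leaving out an untreated array, after which the rule asks for fewer steps, raised the genes that went on from 213 to 400 or 344. Those that turned back rose from 167 to 316 or 253.

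**Figure D3:**
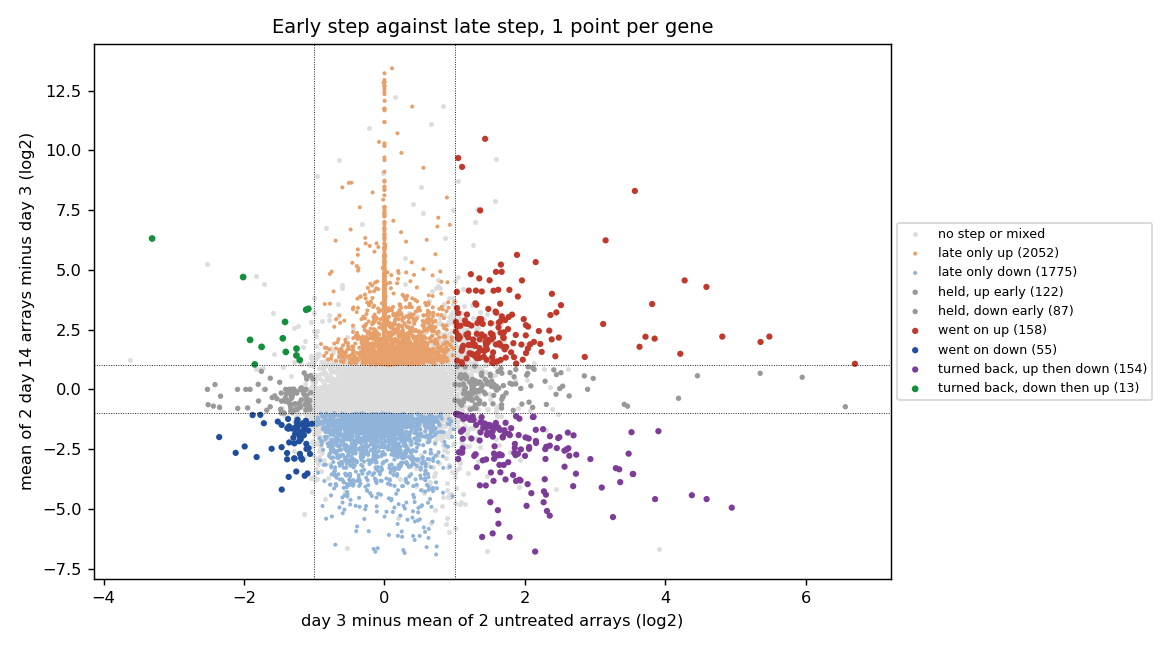
Early step (day 3 minus the mean of the untreated arrays, horizontal axis) against late step (mean of the day 14 arrays minus day 3, vertical axis), both in log2 units with dim values raised to the floor, 1 point per gene, coloured by class. Dotted lines mark 1 log2 unit; 158 genes went on up, 55 went on down, 154 turned back after a step up and 13 after a step down.

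Among the 42 lists, fat cell genes had the largest share that went on up. All 13 tested adipocyte genes lay above both untreated arrays at day 3, as 44.0% of all genes did. On both day 14 arrays all 13 lay above day 3, as 43.8% of all genes did. The rule for going on up was met by 7 of them, against 0.98% of all genes measured. By limma 5 of the 13 were called higher at day 14 than at day 3, against 10.9% of all genes, and none lower. The median was 1.84, which turned to -0.38 under spike-in scaling. Ucp1, the uncoupling protein of brown fat, stood at -4.52 and -4.96, then 0.63, then 3.98 and 4.42 (late difference 3.57, SE 0.56, adjusted p = 0.00858, and 0.0659 with spike-in scaling). Its early difference did not pass (adjusted p = 0.0898). The summed signal of the list was 5.35 and 4.97, then 6.94, then 8.90 and 8.78. In the parotid samples the sum was 6.15 and 8.02, and in submandibular gland 5.78. Ucp1 itself was at -6.18 and -5.22 in parotid and -5.19 in submandibular gland. The part of fat tissue around the gland was not tested.

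Of 11 basal and myoepithelial genes, 6 were called higher and 1 lower late, against 10.9% and 11.8% of all genes. The 4 that went on up were Trp63, Myh11, Cnn1 and Lmod1, while after an early step up Krt14 turned back and Krt5 held. The list median of 2.16 turned to -0.06 under spike-in scaling. Myh11, the smooth muscle myosin heavy chain, stood at -3.73 and -3.97, then -1.83, then 2.59 and 3.04 (difference 4.64, SE 0.53, adjusted p = 0.00341). Cnn1, calponin, stood at -0.38 and -1.78, then 0.88, then 5.53 and 5.34 (difference 4.56, SE 1.06, adjusted p = 0.0288, and 0.0928 with the common floor). Smooth muscle of vessels carries both as well.

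Among immune genes that went on up, Ccl19, a chemokine of lymphoid tissue, stood at -4.14 and -6.35, then -1.82, then 5.59 and 5.75 (difference 7.49, SE 1.87, adjusted p = 0.0349, 0.064 with slide as a fixed block and 0.0908 with the common floor). Ifi27l2a, an interferon-induced gene, stood at 3.03 and 3.55, then 4.67, then 6.75 and 7.19 (difference 2.30, SE 0.38, adjusted p = 0.00998, and 0.837 with spike-in scaling). It was not typical of its list: of 20 interferon response genes 1 was called higher and 2 lower, with a median of -0.46. The rule by which Ccl19 and Ifi27l2a were picked requires that the 3 states do not overlap.

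The 55 genes that went on down included enzymes of sterol synthesis, glycolysis and DNA handling. Gpx2, an epithelial glutathione peroxidase, stood at 7.09 and 7.03, then 5.60, then 1.34 and 1.47 (difference -4.19, SE 0.63, adjusted p = 0.00775). Fdps, which makes farnesyl diphosphate, stood at 3.35 and 3.63, then 2.32, then -0.79 and -0.44 (difference -2.94, SE 0.51, adjusted p = 0.0119). Eno1, the glycolytic enzyme enolase, stood at 2.84 and 2.97, then 1.65, then -1.92 and -1.66 (difference -3.44, SE 0.31, adjusted p = 0.0021). Chaf1a, which loads histones behind the replication fork, stood at 2.23 and 2.41, then 1.18, then -2.43 and -2.42 (difference -3.61, SE 0.37, adjusted p = 0.00262). Mest, an imprinted gene, stood at 1.76 and 1.93, then 0.48, then -3.86 and -4.73, at least 15.5-fold lower (adjusted p = 0.00334). Each of these genes fell further after day 3 than before it. They were picked for the largest late changes of their class, so this is no result about the class.

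**Figure D4:**
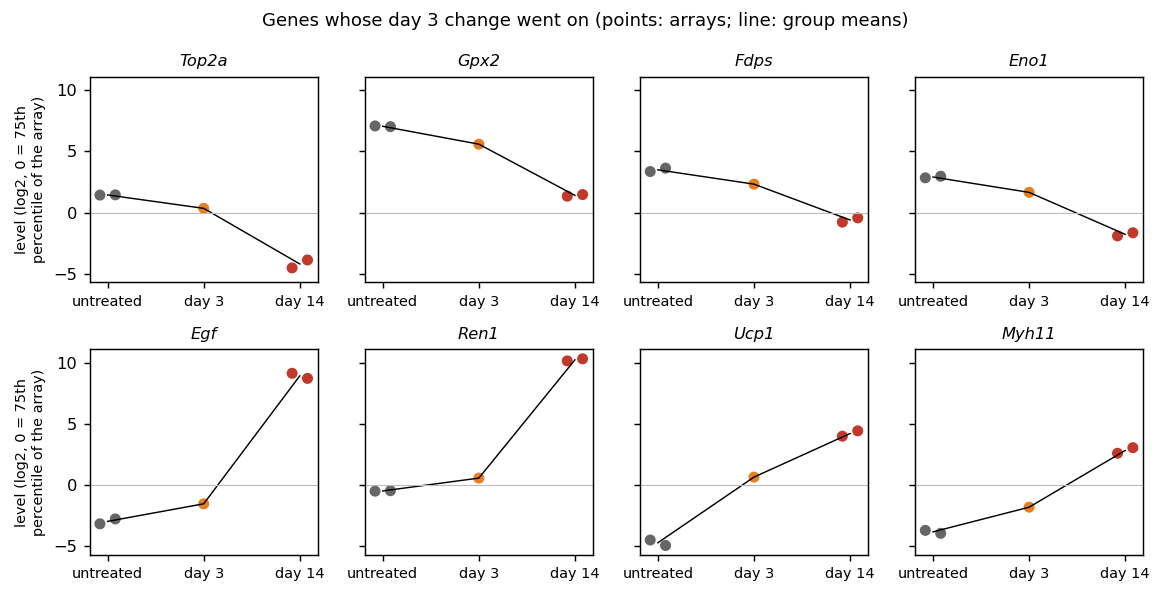
Log2 level (vertical axis, 0 is the 75th percentile of the array) of 8 genes whose day 3 change went on, by treatment (horizontal axis); points are arrays and lines join group means. Top2a, Gpx2, Fdps and Eno1 fell at each step, and Egf, Ren1, Ucp1 and Myh11 rose at each step.

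The early steps up that turned back included genes of stratified epithelium. Of 16 squamous and cornified genes, 7 met this rule: Krt6b, Krt16, Krt17, Sprr1a, Tgm1, Cnfn and Sbsn, listed together after their values had been seen. By limma 7 of the 16 were called lower and 1 higher at day 14 than at day 3, against 11.8% and 10.9% of all genes. Krt16, a keratin of activated epidermis, stood at 2.45 and 2.19, then 4.11, then -2.05 and -2.09 (difference -6.18, SE 0.47, adjusted p = 0.00167). Sprr1a, a precursor of the cornified envelope, stood at 1.66 and 1.54, then 2.99, then -3.92 and -4.87, at least 88.3-fold lower (adjusted p = 0.00264). For both, day 14 ended well below the untreated arrays.

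Of 5 tested neutrophil genes 2 were called lower at day 14 than at day 3, against 11.8% of all genes. All 5 lay above both untreated arrays at day 3, as 44.0% of all genes did, and by limma 0 of 5 passed the adjusted threshold or an unadjusted p of 0.05 there. S100a9, a calprotectin subunit abundant in neutrophils, stood at 4.34 and 4.32, then 5.87, then -0.21 and -0.10 (difference -6.03, SE 1.14, adjusted p = 0.0157, and 0.0618 with the common floor). S100a8, its partner, stood at 2.04 and 1.22, then 2.63, then -3.81 and -5.52, at least 68.5-fold lower (adjusted p = 0.00839). Its day 3 step was under 1 log2 unit against the first untreated array, so it did not meet the rule. The summed neutrophil signal was 5.37 and 5.21, then 7.07, then 0.79 and 0.82. Most of the day 3 sum came from Ltf, at 6.12, and S100a9. By limma Ltf was not called between day 14 and day 3 (adjusted p = 0.156), and it stood at 6.08 in the second parotid sample.

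Of the 4 called Wnt antagonists, Dkk4 and Sfrp4 met the rule for turning back. Dkk4 stood at -0.86 and -0.94, then 0.65, then -5.47 and -5.94, at least 17.4-fold lower (adjusted p = 0.00211). Coch, an extracellular matrix protein, stood at 1.24 and 2.06, then 3.27, then -2.59 and -2.10 (difference -5.62, SE 0.67, adjusted p = 0.00375). C4b, a complement component, stood at 2.36 and 1.16, then 3.62, then 1.20 and 1.49 (difference -2.28, SE 0.55, adjusted p = 0.0325, 0.0689 with slide as a fixed block and 0.0895 with the common floor). Its day 14 values lay within the untreated range.

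By the same floored values, the 154 genes that stepped up and turned back ended at different places: the day 14 mean lay within the range of the untreated arrays for 66, below both for 68 and above both for 20. Of the 13 that stepped down and turned back, 3 ended within that range, 9 above and 1 below.

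Marco, a scavenger receptor of macrophages, was the deepest of these 13. It stood at -0.60 and 1.03, then -3.09, then 3.08 and 3.35 (difference 6.31, SE 1.56, adjusted p = 0.0342, 0.0635 with slide as a fixed block and 0.113 with the common floor). Of the 18 macrophage genes, 7 were called lower at day 14 and 2 higher, against 11.8% and 10.9% of all genes. Msr1, another scavenger receptor, stood at -0.30 and -0.04, then -1.54, then -4.29 and -4.37, at least 3.82-fold lower (adjusted p = 0.0126, and 0.489 with normexp correction). Mtfp1, a mitochondrial fission protein, stood at 1.24 and 1.20, then 0.11, then 3.42 and 3.45 (difference 3.33, SE 0.30, adjusted p = 0.00211). Serpinb6a, a protease inhibitor, stood at 1.70 and 1.72, then 0.63, then 4.06 and 3.93 (difference 3.37, SE 0.54, adjusted p = 0.00923).

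**Figure D5:**
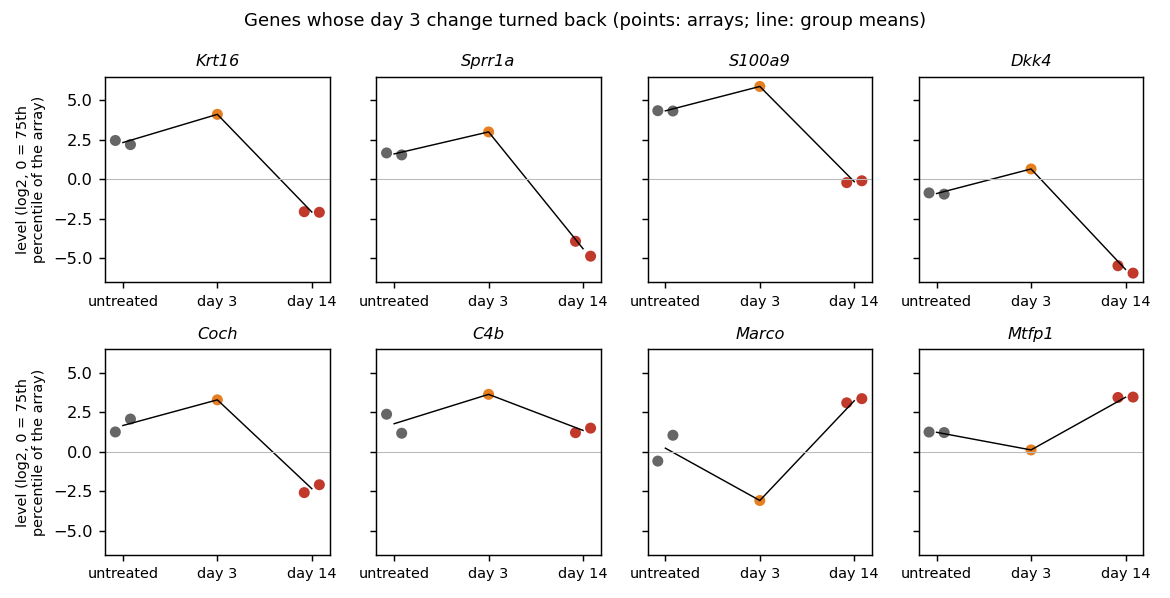
Log2 level (vertical axis, 0 is the 75th percentile of the array) of 8 genes whose day 3 change turned back, by treatment (horizontal axis); points are arrays and lines join group means. Krt16, Sprr1a, S100a9, Dkk4, Coch and C4b peaked at day 3, and Marco and Mtfp1 were lowest there.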

How the data were processed

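Total RNA of 8 samples was measured on 1-colour Agilent whole mouse genome arrays. Per the file headers, the authors' Feature Extraction 10.7.3.1 gave each spot a processed intensity, background-subtracted and not scaled between arrays. The deposited value table holds log2 values with column medians of 5.52 to 5.57; its centring is unstated, and it served as an alternative only.

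Intensities were scaled to each array's 75th percentile. Flagged spots were left out, which removed 124 probes, and a probe was kept if well above background on every array of a group. That left 24286 probes and, by the brightest probe per gene, 16362 genes. Symbols came from RefSeq tables for 23483 probes by accession, 6678 by symbol and 2887 by synonym, and 8126 kept the file's name.

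limma 3.58.1 in R 4.3.3 fitted 5 group means over the 8 arrays with an intensity trend (3 residual and 3.28 prior degrees of freedom). P-values were Benjamini-Hochberg adjusted over all genes, with a threshold of 0.05. The fit was tested on simulated data. Of the called genes, the text names from the 8 largest rises and falls, up to 3 per list and 6 per class, fixed AKT and Wnt genes, and genes stated to fall outside. The members, the 42 gene lists and the motifs were chosen with earlier results of these data known. Array number limits the precision.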

Additional observations from a re-analysis of the deposited data

How the results depend on the processing

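Between day 14 and day 3, 2315 genes were called when well above background on all 8 arrays, 7403 from the tumour arrays alone and 12444 with spike-in scaling, an alternative chosen after seeing the data, and 769 to 7517 when 1 array was left out. At day 3 against untreated, the count was 5 with normexp correction, 6 with quantile normalization, 2 with the deposited values, 29 without the filter, 288 with the common floor, 2 without the intensity trend, 261 from tumour arrays alone, 10 with spike-in scaling, and 0 to 286 without 1 array. It was 0 with slide as a fixed block, where limma gave 1183 genes at an unadjusted p under 0.05, and 0 with the replicate number as a block, where it gave 1194.

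Genes that went on numbered 69 with normexp correction, 48 and 1238 at steps of 1.5 and 0.5 log2 units, and 232 to 400 without 1 array. Those that turned back numbered 76 with normexp correction, 44 when above background on all 8 arrays, 294 with spike-in scaling, 77 and 570 at those steps, and 176 to 316 without 1 array. Those that moved late only numbered 2408 when above background on all 8 arrays, 10041 with spike-in scaling, 2529 at a step of 1.5 and 4033 to 4840 without 1 array. The rule asks for a step against each array, so leaving out an array removes a condition. Beyond that, the cause of these shifts was not tested.

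Among 72 genes named with values, 2 changed direction, both under spike-in scaling: Eif4ebp1 to -0.18 and C3 to -0.73. Without the first or the second day 14 array, 26 and 27 of them no longer passed. Without the first or the second untreated array, 3 and 3 no longer passed. With the common floor 10 no longer passed, without the intensity trend 6, with slide as a fixed block 4, with spike-in scaling 6 besides those 2 and with normexp correction 1. The 6 lost without the trend were C4b, Ccl19, Ctnnb1, Eif4ebp1, Marco and Tnnc2, at adjusted p from 0.0518 to 0.0598. With the replicate number as a block, 2683 genes were called late and 8 of the 72 no longer passed. The labels do not say whether the numbers pair the samples. Deviations of same-numbered arrays correlated at 0.138, 0.0123 and -0.0751, which does not settle it, since the groups differ in tissue or treatment. Signal over background limits sizes: 663 called rises began and 506 called falls ended without signal well above background.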
